A study of Arabidopsis thaliana with 12 samples.

Results

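The subject here is a set of Arabidopsis thaliana transcripts that read higher with dexamethasone than in mock in seedlings with a steroid-activated LEAFY protein, while no such difference was measured when cycloheximide was present on both sides. A probe set entered it when log2((intensity + 10) of dexamethasone over mock) was at least 0.8 in both lots, and the same difference in the presence of cycloheximide was below 0.3 in both lots. Of 22746 probe sets, 73 entered, which is 0.321%. The genes STZ, AR781 and PUB23 had been set aside. AR781 and PUB23 met the thresholds, and STZ missed the ceiling with 0.30 in lot 1. The working name calls the set LEAFY-induced genes lost with cycloheximide. The members were thus chosen by the values of the 8 LEAFY-GR arrays, and every comparison among those arrays is a description with no test.

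All samples were total RNA of 9-day-old seedlings on 12 arrays, with 2 arrays in each of 6 groups and 1 array of each group in lot 1 and in lot 2. In 4 groups the seedlings carried LEAFY-GR and were sampled 8 h after mock treatment, dexamethasone, cycloheximide, or both agents together. The remaining groups, which the labels call untreated, were Landsberg erecta and 35S::LFY seedlings. The labels do not give the promoter behind LEAFY-GR, the background of that line, or whether the arrays of 1 group stem from separate plantings. P-values therefore describe the spread of these arrays, and that spread may be technical. Dexamethasone was given only to the LEAFY-GR line among the samples used here, so effects of the steroid and of LEAFY-GR cannot be told apart. In whole seedlings, fewer cells of a type and less RNA per cell cannot be told apart either. LFY itself had no probe set named here, so the labels were not checked through it.

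LEAFY is a plant transcription factor that gives young shoot primordia their floral identity. In LEAFY-GR it is fused with the steroid-binding domain of the glucocorticoid receptor and stays out of the nucleus until dexamethasone is given. Cycloheximide stops translation, so a gene that needs a newly made intermediate protein cannot respond while it is present. Cycloheximide also raises many short-lived transcripts by itself, because the proteins that repress or degrade them are no longer replaced. The 35S promoter keeps LFY expressed throughout the plant.

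Array medians were higher with dexamethasone than in mock in both lots (61.8 against 57.6 and 64.3 against 56.7). With cycloheximide present they were lower with dexamethasone in both lots (49.8 against 50.8 and 57.1 against 59.8). These shifts run the same way as the selection. The lower quartiles were 20.7 and 22.0 with dexamethasone and 17.9 and 18.1 in mock. Of the controls for RNA quality, the 3′ to 5′ signal ratio of GAPDH was also higher with dexamethasone than in mock (1.17 against 1.12 and 1.28 against 0.97). A second GAPDH set was higher too (1.58 against 1.52 and 1.47 against 1.36). So were both ubiquitin sets (1.69 against 1.51 and 1.49 against 1.43, and 1.99 against 1.68 and 1.68 against 1.58). The actin ratio was higher in one set of control probe sets (1.94 against 1.75 and 1.67 against 1.63) and lower in the other (5.36 against 7.69 and 4.21 against 5.88). The part of these shifts in the results was not tested. The green-tissue genes LHCB4.1 and RCA read 3267 to 8019 and 4905 to 8377 over the arrays. The root-hair gene EXPA7 read 34.2 to 95.8, and CLV3, a signal peptide gene of the shoot meristem, 2.4 to 6.4. AT5G10130, entered as a pollen marker that should be absent, read 26.9 to 126.2.

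Dexamethasone raised 206 probe sets by the threshold in both lots, 0.906% of all, and 208 were lower by as much. In the presence of cycloheximide 57 of the 206 stayed at or above 0.3 in both lots, 75 were below it in both, and 74 differed between the lots. Being below 0.3 in both lots was common, at 69.8% of all probe sets. Of the 73 members, 27 were raised by at least 1 in both lots. Mean changes of the members ran from 0.82 to 2.29 with a median of 1.05. The membership depends on the pseudocount. It was 123 probe sets with a pseudocount of 5 and 18 with 20, and 39 after scaling the arrays to equal medians. Applied to a single lot, whatever the other showed, the thresholds gave 586 probe sets in lot 1 and 1106 in lot 2, each with all 73 members among them.

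**Figure D1:**
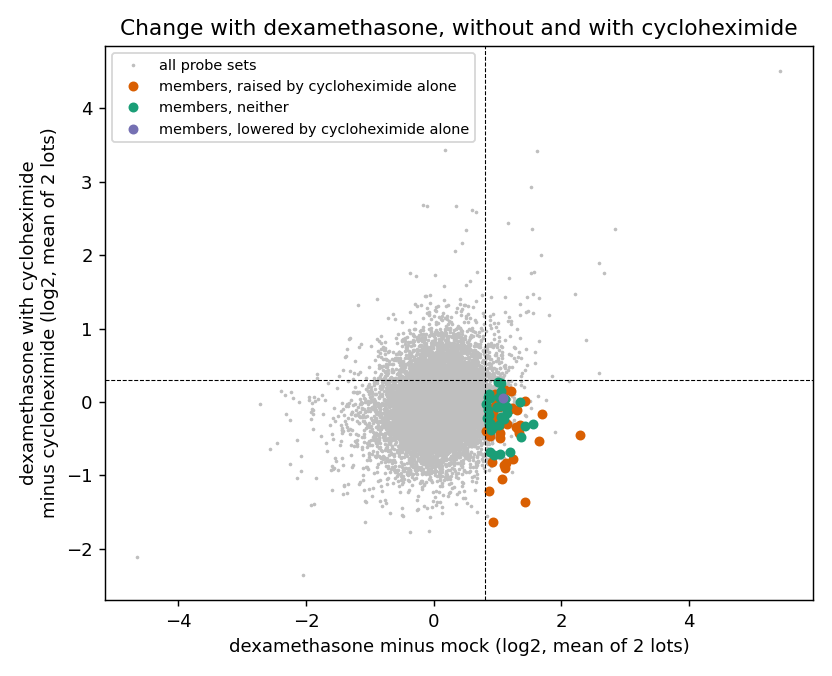
Each grey point is 1 of 22746 probe sets, and coloured points are the 73 members by their response to cycloheximide alone. The x axis is the log2 difference of dexamethasone and mock, the y axis that of both agents and cycloheximide, each the mean of 2 lots, and dashed lines mark 0.8 and 0.3. The members lie at the edge of the cloud, with mean changes of 0.82 to 2.29 on the x axis.

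Of the members, 53 matched a single locus, 19 probe sets are unnamed here and 1 reads several genes. Only 4 had a gene symbol: AGL95, DFO, FD and ATBRXL2. The other 49 are known here by locus code. Annotated pseudogenes made up 9 of the 53 loci (17.0%), against 989 of 13436 named probe sets (7.36%). They were AT4G15860, AT1G32840, AT2G16330, AT2G16690, AT3G42100, AT1G42365, AT2G41580, AT3G42910 and AT2G10760. Pseudogene probe sets of the whole array had a median intensity of 6.0 on the Landsberg erecta and 35S::LFY arrays, and the 9 in the set had 16.4. The probe sets of AT1G32840 and AT2G16330 and the one that reads several genes are of types that can share signal with related sequences. No pair of members lay within 5 genes of each other along a chromosome in the TAIR10.1 gene order.

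Most members were dim. On the 4 untreated arrays, which the selection did not use, their median intensity was 16.4, against 63.2 for all probe sets and 90.2 for the 57 that stayed raised with cycloheximide. An intensity under 20 there was found for 40 of 73 members (54.8%), against 25.2% of all probe sets. Only 2 members reached 100, the probe set 253534_at and AT1G67750. In mock, 30 of the 73 read below the pseudocount of 10 in both lots (41.1%, against 13.1% of all). Log2 changes of such members depend on the pseudocount and understate the ratio of intensities.

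**Figure D2:**
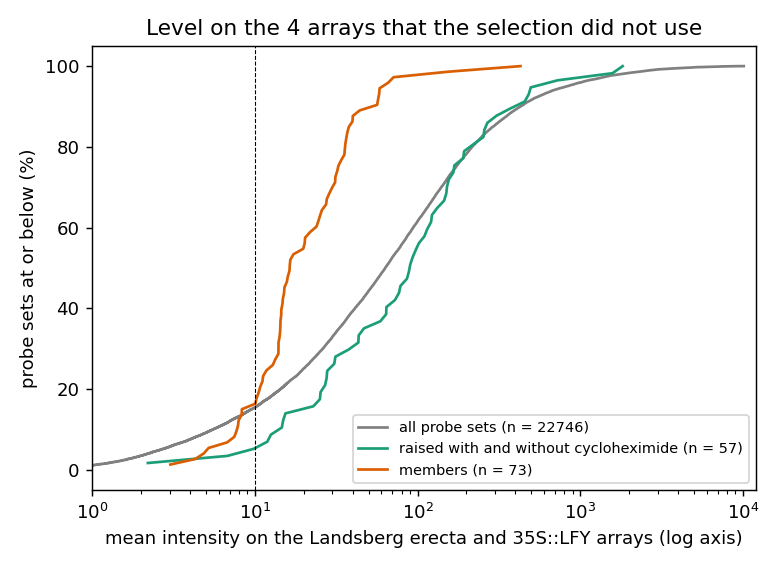
The curves give the share of probe sets at or below each mean intensity on the Landsberg erecta and 35S::LFY arrays (log axis), with the pseudocount of 10 dashed. The curve of the 73 members has its median at 16.4, left of all probe sets (63.2) and of the 57 raised with and without cycloheximide (90.2).

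Cycloheximide alone raised 39 of the 73 members by at least 0.8 log2 in both lots over mock (53.4%). The background was 12.8% of all probe sets. Among the 57 that stayed raised with both agents, 16 were raised by cycloheximide alone (28.1%). A further 20 members passed 0.8 in 1 lot, and 14 in neither, of which AT1G67750 was lowered by as much in both lots (17.1% of all probe sets were). In all, 63 of the 73 read above mock in both lots (86.3%, against 36.2% of all probe sets). The selection favours such members, since it asks for a low mock array and a cycloheximide array not far below the one with both agents. The share is therefore a description of the set.

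**Figure D3:**
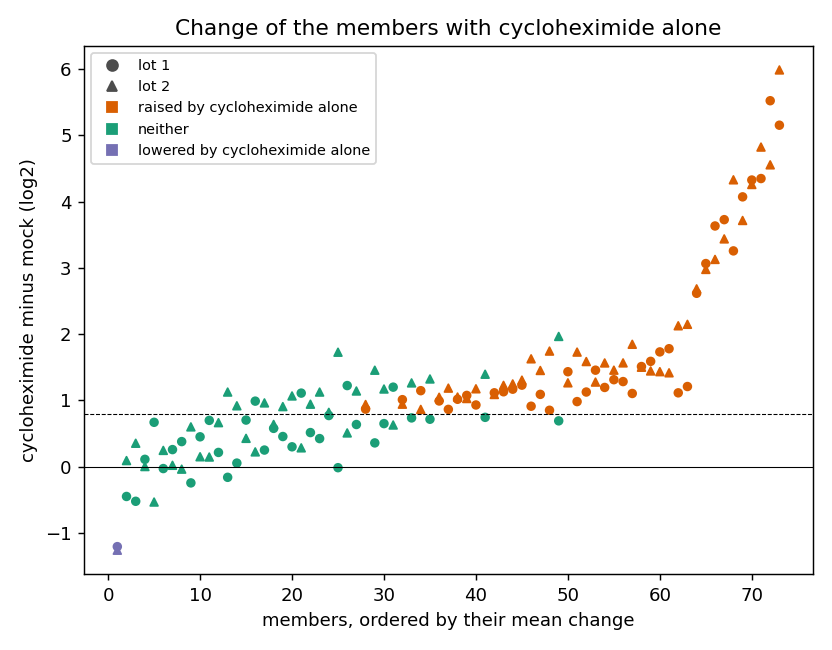
Each member is drawn at its log2 difference of cycloheximide and mock, lot 1 as a circle and lot 2 as a triangle, in the order of the mean. The 39 orange members lie above the dashed line at 0.8 in both lots, 8 of them above 3, and the single purple one below -0.8.

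For 28 of these 39 members the level with cycloheximide alone was at or above that with dexamethasone alone in both lots. The rise with cycloheximide that defines the 39 favours this, and the share over all probe sets is not given here. With both agents together 16 of the 39 read at or above dexamethasone alone in both lots, and 16 read below it in both. Of all 22746 probe sets, 6764 read at or above it in both lots and 11146 below. The selection of the 39 used these same arrays, so all probe sets are not a like background for these counts. Of all 73, 26 were at least 0.8 log2 above mock in both lots with both agents (12.3% of all probe sets were). For those members the step between the arrays without and with dexamethasone was missing, while the transcript level was not.

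The strongest responses to cycloheximide came from 8 members raised by at least 3 log2 in both lots (2.64% of all probe sets). All 8 read higher with both agents than with dexamethasone alone in both lots (6764 of all 22746 probe sets read at or above it). The choice of these 8 by their rise with cycloheximide strongly favours this, since their mean changes with dexamethasone were only 0.95 to 1.69. It is a description of the 8, and all probe sets are not a like background for it. AT4G28085 read 162.0 and 117.3 in mock (lots 1 and 2), 299.1 and 255.3 with dexamethasone, 3491 and 3591 with cycloheximide, and 3840 and 3814 with both. The levels with cycloheximide thus exceeded those with dexamethasone by over 3 log2, a mean of 3.74 with both agents. It was also higher in mock than in Landsberg erecta, where it read 21.6 and 26.3.

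The probe set 260023_at had the highest mean change with cycloheximide alone, 5.57 log2. It read 30.5 and 9.1 in mock, 97.9 and 64.5 with dexamethasone, 1430.3 and 1200.9 with cycloheximide, and 1346.5 and 1014.3 with both. The dexamethasone level was a small part of the cycloheximide level in each lot. AT3G60420 read 105.9 and 53.9 in mock, 231.9 and 172.4 with dexamethasone, 1096.6 and 1273.5 with cycloheximide, and 1021.7 and 845.3 with both. It read 18 and 9.3 in Landsberg erecta, so that it too was higher in mock. AT3G60420, AT4G02170 and 247437_at lie outside the naming rule and were picked once their values were known.

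The probe sets 267567_at and 261875_at were below the pseudocount in mock (1.3 and 2.0, and 2.2 and 4.3). With cycloheximide they read 509.2 and 271.9, and 234.5 and 263.5. With dexamethasone alone they reached only 13.0 and 17.6, and 17.0 and 29.3. The probe set 253904_at went from 14.6 and 14 in mock to 403.4 and 305.0 with cycloheximide, with 44.2 and 34.2 under dexamethasone. AT4G02170 and 247437_at completed the 8, with 200.5 and 230.3, and 218.0 and 192.6, under cycloheximide.

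The other 31 members raised by cycloheximide alone changed by 0.90 to 3.02 log2 on the mean of the lots, with a median of 1.35. Of these, 16 read below the pseudocount in mock in both lots. The median of their mean intensities was 8.7 in mock, 33.1 with dexamethasone, 40.0 with cycloheximide and 29.6 with both. With both agents 8 of the 31 read at or above dexamethasone alone in both lots and 16 below it (6764 and 11146 of all 22746 probe sets). The 31 were selected on these same arrays, so the counts describe them and are not comparable with all probe sets. The brightest was 253534_at, chosen after its values were seen. It read 658.8 and 532.5 in mock, 1470.2 and 1095.6 with dexamethasone, 1520 and 1593.9 with cycloheximide, and 1664.8 and 1576.7 with both. Its levels with either agent or both were all above mock, and those with dexamethasone alone were below the others in each lot.

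AT5G42330 had the highest mean change with dexamethasone, 2.29 log2. It read 9.1 and 9.9 in mock and 79.6 and 90.8 with dexamethasone. With cycloheximide it read 31.3 and 76.8, and with both agents 37.5 and 30.4, so the lots differed widely under cycloheximide. Its Landsberg erecta arrays also differed, with 51.9 and 11.6, both above mock.

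Next by change with dexamethasone among the dim members was AT4G15860, a pseudogene, with 3.4 and 4.3 in mock, 23.7 and 45.3 with dexamethasone, and 22.6 and 32.3 with cycloheximide. AT1G67450 read 2.5 and 2.8 in mock, 22.2 and 22.1 with dexamethasone, and 12.8 and 14.5 with cycloheximide. The probe set 249848_at was brighter. It read 23.0 and 23.2 in mock, 83.1 and 75.3 with dexamethasone, 192.2 and 203.1 with cycloheximide, and 187.7 and 211.6 with both.

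Of the members with a symbol, AGL95, ATBRXL2 and DFO belong to the group raised by cycloheximide alone. AGL95 encodes a protein of the MADS-domain family, to which many floral regulators belong. It read 0.5 and 4.4 in mock, 11.3 and 29.2 with dexamethasone, 19.9 and 30.7 with cycloheximide, and 22.6 and 23.3 with both. ATBRXL2 belongs to the BREVIS RADIX-like family, with 6.6 and 6.4 in mock, 20.3 and 21.8 with dexamethasone, 28.9 and 30.5 with cycloheximide, and 7.8 and 18.2 with both. DFO is needed for the DNA double-strand breaks of meiosis. It read 1.1 and 2.4 in mock, 10.7 and 20.8 with dexamethasone, 10 and 31.5 with cycloheximide, and 5.8 and 5.9 with both. All 3 genes were below the pseudocount in mock. With both agents AGL95 read above dexamethasone alone in lot 1 and below it in lot 2. DFO and ATBRXL2 were lower with both agents than with either alone in both lots.

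FD, a bZIP transcription factor that acts with the florigen FT at the shoot apex to promote flowering, was the 1 member from the list of floral regulators. It read 15.1 and 22.7 in mock and 38.0 and 63.3 with dexamethasone, changes of 0.94 and 1.16 log2. With cycloheximide it read 32.0 and 75.9, and with both agents 39.7 and 79.2. Its change with cycloheximide alone was 0.74 in lot 1 and 1.39 in lot 2, so it missed the threshold in lot 1 only. The levels of FD with both agents were above those with dexamethasone alone in both lots.

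**Figure D4:**
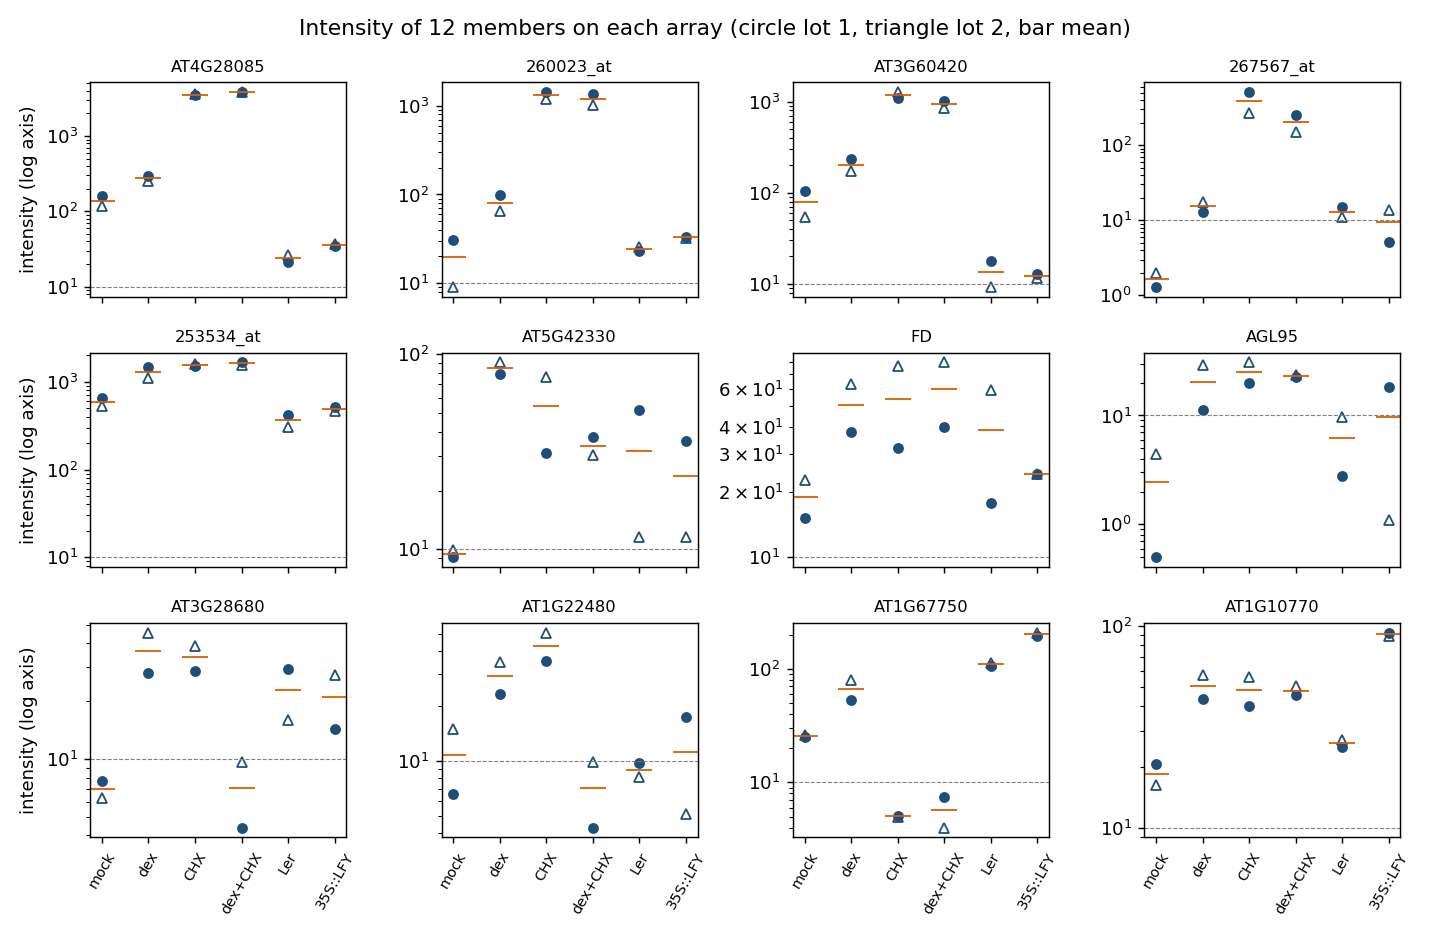
Intensities of 12 members are drawn by group on a log axis, lot 1 as a filled circle, lot 2 as an open triangle and the mean of 2 as a bar, with the pseudocount of 10 dashed. dex is dexamethasone, CHX cycloheximide and Ler Landsberg erecta. AT4G28085, 260023_at and AT3G60420 are higher in the 2 groups with cycloheximide than in the other 4, while AT1G67750 falls to about 5 there.

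In 4 members raised by cycloheximide alone, adding dexamethasone to it lowered the reading by at least 0.8 log2 in both lots (background 0.598%). They were AT1G22480, AT3G28680, AT4G27590 and the probe set 267567_at, the first and the third picked with their values known. AT1G22480 read 6.6 and 15 in mock, 23.3 and 35.1 with dexamethasone, 35.5 and 50.5 with cycloheximide, and 4.3 and 9.9 with both. The last values lie at or below mock and under the pseudocount.

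Neither raised nor lowered by cycloheximide alone in both lots were 33 members. Of these, 24 read below dexamethasone alone in both lots when both agents were given, as did 11146 of all 22746 probe sets. By the thresholds, none of the 33 could read at or above dexamethasone in both lots with cycloheximide alone. Their mean intensities ran from 1.65 to 44.8 in mock (median 9.8), from 13.1 to 88.0 with dexamethasone (32.8), from 4.1 to 82.3 with cycloheximide (20.9) and from 2.75 to 78.0 with both (15.8). The changes with cycloheximide alone lay between -0.18 and 1.33, with a median of 0.61. In the 24 members the level as well as the difference was lower with both agents, which the thresholds favour in this class. The probe set 248693_at read 39.1 and 43.3 with dexamethasone, 9.7 and 6.9 with cycloheximide, and 7.0 and 3.0 with both. Its mock arrays read 2.4 and 14.5, and its Landsberg erecta arrays 31.3 and 53.1, as high as with dexamethasone.

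Among the members with the smallest response to cycloheximide, AT4G33130 read 20.6 and 5.5 in mock, 47.5 and 25.1 with dexamethasone, 23.0 and 5.5 with cycloheximide, and 3.8 on both arrays with both agents. AT3G42100, a pseudogene, read 6.0 and 5.5 in mock, 23.6 and 20.3 with dexamethasone, and 1.7 and 6.5 with cycloheximide. AT2G07200 read 13.3 and 6.3 in mock, 31.3 and 18.7 with dexamethasone, and 6.2 and 10.8 with cycloheximide. In all 3 both dexamethasone arrays were the highest of their own lot among the LEAFY-GR groups. The thresholds, with such small changes under cycloheximide alone, fix this in advance. AT5G47340, 248216_at and AT3G13140 had mean changes with dexamethasone of 1.43, 1.37 and 1.35, and with cycloheximide alone they passed 0.8 in 1 lot each.

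AT1G67750 was the single member that cycloheximide alone lowered. It read 24.9 and 26.0 in mock and 53.1 and 79.1 with dexamethasone. With cycloheximide it read 5.1 and 5.0, and with both agents 7.5 and 4.0, all below the pseudocount. The absence of a rise with both agents was therefore measured at the floor of the scale. In untreated seedlings it was much brighter, at 106.2 and 112.8 in Landsberg erecta and 196.0 and 207.0 in 35S::LFY.

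Constitutive LFY gave the only test of values that the selection did not use, since its 4 arrays had no part in it. The error of the test was estimated from all 12 arrays, the 8 of the selection included, so that part of it is not independent of the selection. With the 4 arrays alone, limma called 0 members. In 35S::LFY against Landsberg erecta, limma with Benjamini-Hochberg adjustment over all 22746 probe sets called 1 of 73 members higher (background 0.171%) and 0 lower (background 0.123%). At an unadjusted p under 0.05, 4 members were higher (background 2.62%) and 2 lower (background 3.36%). The members' log2 differences ran from -0.92 to 1.48 with a median of -0.05, and that of all probe sets was -0.04. Above 0 were 33 of 73 (45.2%), against 43.5% of all. Both 35S::LFY arrays lay above both Landsberg erecta arrays for 9 members (background 16%) and below for 12 (background 22.3%). Counts and median lay near those of the whole array, so a general rise of the set in 35S::LFY seedlings was not detected.

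The member called higher was AT1G10770. It read 25 and 27.3 in Landsberg erecta and 92.4 and 89.3 in 35S::LFY, a difference of 1.48 ± 0.26 log2 (SE of the limma fit, n = 2 arrays a group, adjusted p = 0.0469). The groups did not overlap, and each lot showed the rise (1.55 and 1.41). The call was lost with a pseudocount of 5 (adjusted p = 0.0609 in limma) and with the 4 arrays of the contrast alone (0.0642). With a lone array in 1 of the groups, the adjusted p was 0.306 to 0.454 in limma, and the difference 1.43 to 1.53. Its LEAFY-GR arrays read 20.6 and 16.2 in mock, 43.5 and 56.9 with dexamethasone, 40.2 and 55.5 with cycloheximide, and 45.2 and 50.1 with both. AT1G10770 was thus alike with either agent and with both, and highest in 35S::LFY. It passed the dexamethasone threshold narrowly, with 0.81 in lot 1.

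AT1G67750 had the next smallest p, with 0.82 ± 0.27 log2 and an adjusted p of 0.493 in limma. Its 35S::LFY arrays lay above both Landsberg erecta arrays and its change was 0.83 and 0.82 in the lots, but it did not pass. FD read 24.1 on both 35S::LFY arrays and 17.7 and 59.2 in Landsberg erecta, so the groups overlapped. AGL95 read 18.2 and 1.1 in 35S::LFY and 2.8 and 9.7 in Landsberg erecta, a spread between lots wider than any difference between the groups.

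**Figure D5:**
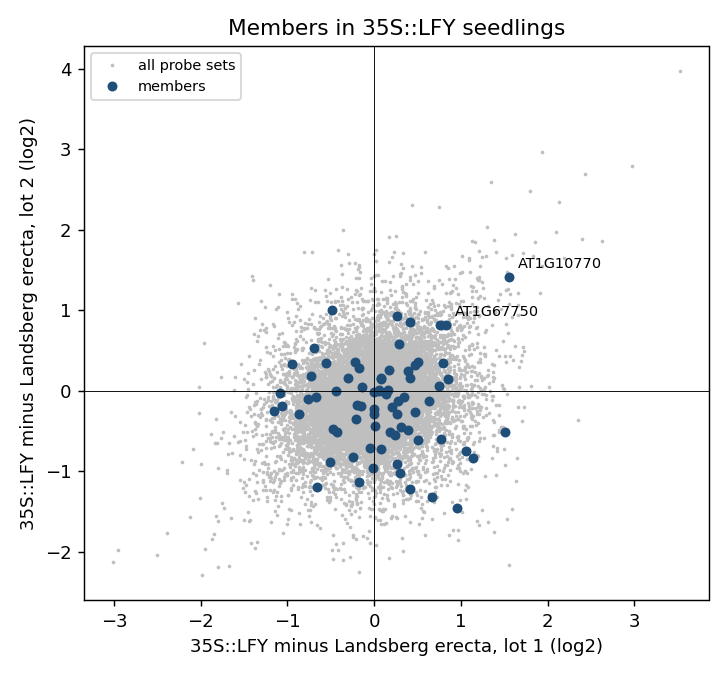
Each point is a probe set at its log2 difference of 35S::LFY and Landsberg erecta in lot 1 (x axis) and lot 2 (y axis), with the 73 members in blue over all probe sets in grey. The members spread around 0 (median -0.05), and AT1G10770 stands apart at 1.55 and 1.41.

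Mock arrays of LEAFY-GR seedlings were low for many members beside the untreated Landsberg erecta. Both mock arrays lay below both Landsberg erecta arrays for 36 of 73 (49.3%, against 32.7% of all probe sets), and by at least 0.8 log2 in both lots for 11 (background 3.24%). The median intensities of the members were 9.8 in mock, 33.2 with dexamethasone, 20.8 in Landsberg erecta and 18.3 in 35S::LFY. Both dexamethasone arrays lay above both Landsberg erecta arrays for 44 members (60.3%, against 25.2% of all). Mock was the baseline of the selection, which favours low values there, so these figures are given with no test. AT4G28085 and AT3G60420 were the 2 members at least 0.8 higher in mock than in Landsberg erecta in both lots (background 2.88%).

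At the dexamethasone threshold, the members just inside were 266462_at, AT1G10770 and 248676_at, with a lower lot of 0.80, 0.81 and 0.81. Just outside were 245038_at, AT2G07240 and 259312_at, each at 0.79. At the cycloheximide ceiling AT3G43940, 255574_at and AT2G10760 entered with an upper lot of 0.29 each. AT3G56590 and 260784_at stayed out at 0.30 each and 263510_s_at at 0.33. The differences across both thresholds were smaller than those between the lots of most of these probe sets.

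Of the genes listed for related roles, few were measured, and 0.321% of all probe sets entered the set, so counts of 0 in such short lists say nothing particular to them. AR781 and PUB23, which met the thresholds, had been set aside. Of 27 floral regulators and reported LEAFY targets 7 were measured by a named probe set (UFO, JAG, SPT, SPL, FD, AGL24 and AGL42), and FD was the 1 member. AGL24, a MADS-domain promoter of flowering, differed by 0.37 and 1.16 with dexamethasone, with intensities of 1.0 and 1.4 in mock and 4.2 and 15.5 with dexamethasone. JAG, a regulator of lateral organ growth, had changes of 0.05 and 1.26. For UFO they were 1.56 and -1.02, for AGL42 0.51 and 0.33, for SPT 0.50 and 0.38, and for SPL 0.26 and 0.01. Of the rapid stress and calcium genes 4 of 23 were measured (WRKY22, WRKY53, CML37 and CML38), and 0 entered. Their changes with dexamethasone ran from -0.20 to 0.39, while cycloheximide alone gave 2.29 to 6.53. Of the defence genes 3 of 15 were measured (EFR, BIK1 and PDF1.2a) and of the flavonoid genes 1 of 8 (DFR), with 0 members. DFR had 0.72 and 1.61 with dexamethasone, and -0.60 and 0.06 with cycloheximide present, and missed the threshold in lot 1. Of 12 auxin response genes 8 were measured and 0 entered. GH3.17, an enzyme that conjugates auxin, passed the dexamethasone threshold and was also higher with dexamethasone when cycloheximide was present (2.62 and 4.20). In 35S::LFY against Landsberg erecta, limma called 0 genes of these lists in either direction. An unadjusted p under 0.05 was found for WRKY22 (0.44 log2), IAA29 (-1.03) and LBD29 (-1.17).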

How the data were processed

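The authors deposited 1 linear intensity per probe set and array, with 1 decimal and no detection calls or background values. The sources used here do not name the software. The deposited intensities had a 2% trimmed mean of 150.01 to 150.02 on every array, as scaled arrays have. The values were used as deposited, without 64 control probe sets, as log2(intensity + 10). Arrays give no counts, so their number limits the precision.

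Gene names come from the platform annotation, updated with RefSeq TAIR10.1 (names and gene order only), and 13436 probe sets matched 1 locus. A model with the 6 group means was fitted to the 12 arrays in limma 3.58.1 (R 4.3.3), with an intensity trend, 6 residual and 5.3 prior degrees of freedom. Adjustment of p ran over all 22746 probe sets, with calls at 0.05. The fit was also run on simulated data with independent normal noise and no lot effect, and no result here rests on that run. Other steps used Python 3.11.15, numpy 2.4.6, pandas 2.3.3 and, for plots, matplotlib 3.10.9.

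Lots pair arrays per the labels. Deviations of arrays of the same lot correlated at 0.05 to 0.33 over 15 pairs of groups. Named were members with a symbol, the 10 with the highest change under dexamethasone, 5 at each end for cycloheximide alone, calls in 35S::LFY, the 3 on each side of a threshold, and up to 2 genes a list. Any other was chosen after its values were seen. The members and lists were chosen with earlier results of these data known. Promoter motifs were not analysed here. Alternatives were other pseudocounts, thresholds, scalings, a filter on dim probe sets, the lot as a block and single arrays left out.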

Additional observations from a re-analysis of the deposited data

Results flagged for a closer look

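In 4 members the change with dexamethasone was at least 0.8 log2 upwards without cycloheximide and at least 0.8 downwards with it, in both lots (0.598% of all probe sets were lowered by as much with cycloheximide). The selection fixed the first direction and capped the second, and the difference was not tested. AT1G22480 changed by -1.64 on average with cycloheximide present, from 35.5 and 50.5 with cycloheximide to 4.3 and 9.9 with both agents, and read 6.6 and 15 in mock and 23.3 and 35.1 with dexamethasone. AT3G28680 changed by -1.37, from 28.6 and 38.9 to 4.4 and 9.7, and read 7.7 and 6.3 in mock and 27.9 and 45.3 with dexamethasone. AT4G27590 changed by -1.21, from 20 and 33.2 to 3.3 and 8.1. The probe set 267567_at changed by -0.9, from 509.2 and 271.9 to 252.5 and 151.2. In the first 3 the arrays with both agents read under 10, the pseudocount, on which the size of the change then depends. All 4 had been raised by cycloheximide alone.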

How the results depend on the processing

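The size of the set depended on nearly every setting tried. It held 123 probe sets with a pseudocount of 5 (65 shared with the 73), 18 with 20 (16 shared), 39 with arrays scaled to equal medians (39 shared), 36 with quantile normalisation (32 shared) and 44 with a mean intensity of at least 20. A dexamethasone threshold of 1.0 gave 27 and of 0.6 gave 218, and a ceiling of 0 gave 36 and of 0.5 gave 108. A single lot, an alternative chosen after seeing the data, gave 586 in lot 1 and 1106 in lot 2, of which 267 and 721 were raised by cycloheximide alone in that lot. The number raised by cycloheximide alone was 69, 8 and 25 with a pseudocount of 5, a pseudocount of 20 and quantile normalisation. As a share of the set it ran from 37.6% to 71.8% over all settings.

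In 35S::LFY the 1 call, AT1G10770, became 0 with a pseudocount of 5 (adjusted p = 0.0609 in limma) and with only the 4 arrays of the contrast (0.0642), and it was 0 to 0 when 1 array was left out. With the lot as a replicate block AT1G10770 kept its call (adjusted p = 0.0324), calls over all probe sets went from 67 to 72, and no other call of a member changed. Calls over all probe sets were 34 with equal medians, 156 with the 4 arrays alone, 32 without the intensity trend, and 1 to 2 when 1 array was left out. Where an array was left out, its group held a single array. The cause of the changed calls was not tested for any setting. The median of the members in 35S::LFY lay between -0.20 and 0.16 in the fits tried, and was above 0 with equal medians (0.02) and quantile normalisation (0.03). Of the values for single members, 283 kept a call or, without one, moved by less than the spread between their lots. Another 34 had no call and moved by more, and 6 lost a call. A move within the spread could reverse the sign, as for AGL95 without replicate 1 of 35S::LFY (0.156 to -0.517 log2).

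Signals near the pseudocount, without detection calls, limit every statement on the dim members.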
